A study of Arabidopsis thaliana with 44 samples.

Results

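The response of freshly harvested dry Arabidopsis seed to a cool maternal environment was followed in NIL DOG1, with 3 arrays of seed from plants grown at 15C against 3 from plants grown at 20C. These 6 arrays, all those titled for that line and those temperatures, are part of a series of 44, and all 27827 probe sets of each were compared. NIL DOG1 is a near isogenic line named for DELAY OF GERMINATION 1 (DOG1). A near isogenic line carries a donor chromosome segment around a locus in an otherwise shared background, so neighbours of the locus can differ between lines too. The labels do not name the background or the donor, and each line is 1 genotype. The series also holds NIL DOG3 and NIL DOG6, and seed from low nitrate (N0), low light (LL) and standard light (SL), in 15 groups of 3 arrays except NIL DOG3 under N0 with 2. Per the labels, 20C is the control of 15C and of N0, and SL is the control of LL. Each replicate was a bulk of 4 plants, in randomized blocks. Molecules are labelled as total RNA, although the extraction text also describes polysome RNA.

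Primary dormancy is set while the seed matures on the mother plant, and cool maturation is known to deepen it in Arabidopsis. The DOG1 protein delays germination, and it is known to bind a seed phosphatase of the abscisic acid (ABA) pathway. ABA keeps the seed dormant, gibberellin promotes germination, and nitrate is known to release dormancy. The RNA of a dry seed was largely made during maturation on the mother plant.

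Values are log2 expression values deposited by the authors, so a difference of 1 is 2-fold. Levels are given as mean ± SD, and changes as limma's log2 estimate ± SE with an adjusted p over all probe sets. The 6 arrays had medians of 4.231 to 4.312 and correlated at 0.990 to 0.994 within a group and at 0.984 to 0.989 between the groups. All 11 dry seed markers (cruciferins, 2S albumins, oleosins and EM proteins) lay above the median of all values, 4.28, with group means at 15C of 10.79 to 12.55, and 0 were called. The mean of these markers was 11.74 to 11.85 per array at 15C and 11.89 to 11.94 at 20C, without overlap. Pollen markers, 7 of 17 of them above the median in this line, averaged 4.06 to 4.18 per array at 15C and 4.35 to 4.50 at 20C, also without overlap, and 1 of them (PPME1, -0.78 ± 0.23) was called. On the linear scale the pollen markers summed to 471.3 to 543.1 at 15C and 660.2 to 839.1 at 20C. The green leaf markers averaged 3.61 to 3.76 and 3.54 to 3.87, and the endosperm markers 3.85 to 3.94 and 3.85 to 3.93, so these overlapped. The part of other cell types in the changes below was not tested. In such bulk seed, fewer cells of a type and less RNA per cell cannot be told apart.

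At 15C, 1483 probe sets were higher and 1224 lower than at 20C in NIL DOG1, at an adjusted p under 0.05. Together these are 9.73% of all probe sets, 5.33% higher and 4.4% lower. Of the higher ones 216 rose at least 2-fold, and of the lower ones 82 fell at least 2-fold. The share of calls that were higher was 54.8%, and it was 41.2% when each array was centred on its median, where the medians averaged 4.299 at 15C and 4.247 at 20C. The number of calls depended on single arrays, and without the second array at 20C 1724 were called, of which 717 were lower. Without the first array at 20C, 783 were lower. In 95 of the 2-fold rises the 20C mean lay below the median of all values, and in 33 of the 2-fold falls the 15C mean did.

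The gene DOG1 (AT5G45830), the dormancy regulator for which the line is named, read 9.33, 9.38 and 9.39 at 15C and 7.61, 7.61 and 7.72 at 20C. All arrays at 15C were thus well above all arrays at 20C, and the rise was 3.29-fold (1.72 ± 0.17, adjusted p = 1.97e-08). In NIL DOG3 the mean was 6.12 ± 0.33 at 20C and 8.71 ± 0.16 at 15C, each an SD over 3 arrays. NIL DOG6 had means of 6.08 ± 0.14 at 20C and 8.49 ± 0.17 at 15C, so both other lines had less DOG1 RNA at either temperature. The rise in NIL DOG1 was 0.79 ± 0.21 log2 units smaller than the mean rise of the others, a difference that did not pass over all probe sets (unadjusted p = 0.00070, adjusted p = 0.538 from limma). NIL DOG1 was higher than the mean of the others by 1.55 ± 0.15 at 20C and by 0.76 ± 0.15 at 15C. Whether a sequence difference under the probes of DOG1 contributes to these gaps was not tested. Within NIL DOG1, N0 gave 0.55 ± 0.17 against 20C, which did not pass (adjusted p = 0.0878). Of all probe sets 2.75% were called under N0 in this line.

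**Figure D1:**
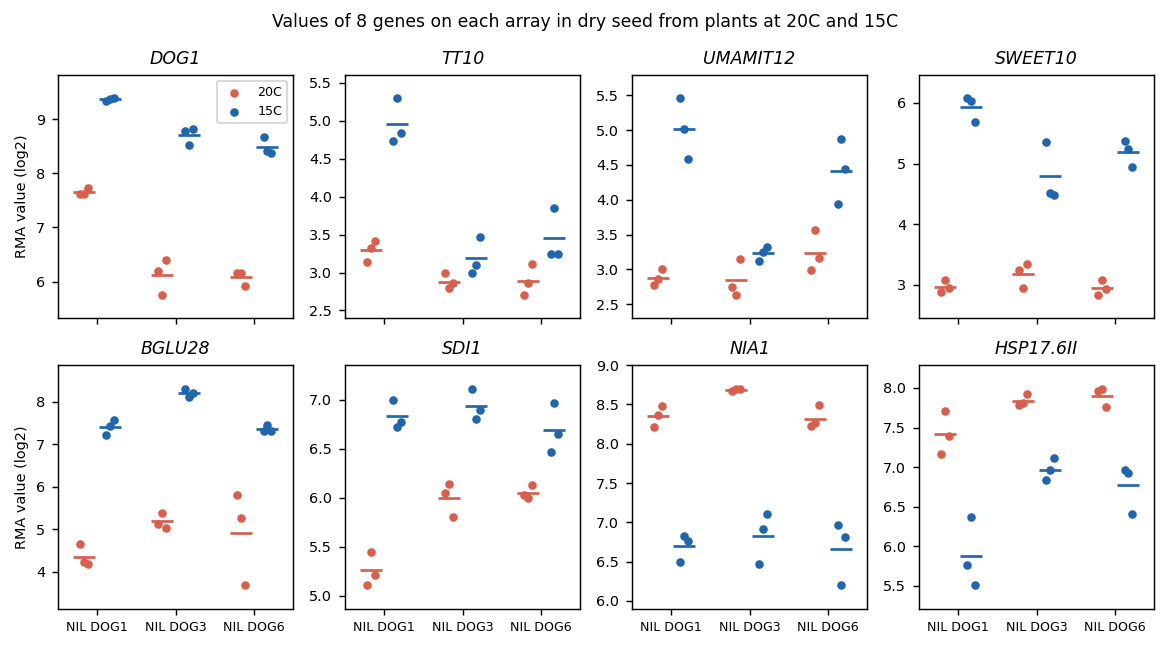
RMA values (log2) on each array of 8 genes, with the 3 lines on the horizontal axis, 20C in red and 15C in blue; each point is 1 array and each bar a mean of 3. TT10 at 15C stands at 4.73 to 5.30 in NIL DOG1 and below 4 in the other lines, whereas DOG1 rose from a higher 20C level in NIL DOG1.

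The largest rise in NIL DOG1 was that of BGLU28, a beta-glucosidase gene known from sulphur deficiency. It read 7.21, 7.43 and 7.57 at 15C and 4.65, 4.24 and 4.18 at 20C, which is 8.24-fold (3.04 ± 0.36, adjusted p = 3.6e-07). SWEET10, a gene for a sugar exporter of the SWEET family, read 6.08, 6.04 and 5.69 at 15C against 2.88, 3.08 and 2.94 at 20C (2.97 ± 0.22, adjusted p = 5.7e-11). In both genes the groups were far apart, although SWEET10 at 20C was below the median of all values. LSU1, a gene of the low sulphur response, rose by 2.77 ± 0.36. PELPK1, which encodes a repeat-rich cell wall protein, rose by 2.41 ± 0.26, and the pectin acetylesterase gene AT5G45280 (PAE11) by 2.38 ± 0.22. LAC5, of the laccase family of oxidases, rose by 2.17 ± 0.24, and DOX1, a fatty acid dioxygenase gene, by 2.13 ± 0.28. UMAMIT12 and UMAMIT14, of a family that holds amino acid exporters, rose by 2.14 ± 0.22 and 2.13 ± 0.27. The other genes among the 15 largest rises carry no symbol in the gene table used. They were AT2G38380, AT4G01985, AT5G09480, AT3G17150, AT2G27240 and AT5G55180, with rises of 2.08 to 2.58. As with SWEET10, the 20C means of PELPK1, LAC5, UMAMIT12, UMAMIT14, AT5G09480, AT3G17150, AT2G27240 and AT5G55180 were below the median of all values. The locus AT5G09480 lies close to PELPK1 (AT5G09530) on chromosome 5.

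The deepest fall was that of SSL4, a strictosidine synthase-like gene. Its values were 3.38, 2.65 and 4.3 at 15C and 5.86, 6.33 and 6.31 at 20C (-2.72 ± 0.30, adjusted p = 1.1e-07), so the 15C arrays spread widely yet stayed below those at 20C. PIFI, a gene known from chloroplast electron flow after illumination, fell by 1.88 on the log2 scale. UGT71B1, a glycosyltransferase gene, fell by 1.74. AGAL1, an alpha-galactosidase gene, fell by 1.7. POK1, a kinesin gene known from the placement of the division plane, fell by 1.69. CIPK21, a protein kinase gene of calcium signalling, gave -1.575 ± 0.207. AT4G08869 gave -1.81 ± 0.59 (adjusted p = 0.045), but 1 of its 3 arrays at 20C read 2.95 against 5.69 and 5.70 on the others, and at 15C it read 3.44, 2.54 and 2.92. Its groups overlapped, and its call was lost without any 1 of 5 of the 6 arrays. The remaining members of the 15 largest falls were NIA1, AT4G34419, AT1G78170, AT1G68240, AT5G62720, AT5G60930, the plastid locus ATCG00250 and AT3G20362, at -1.94 to -1.55.

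**Figure D2:**
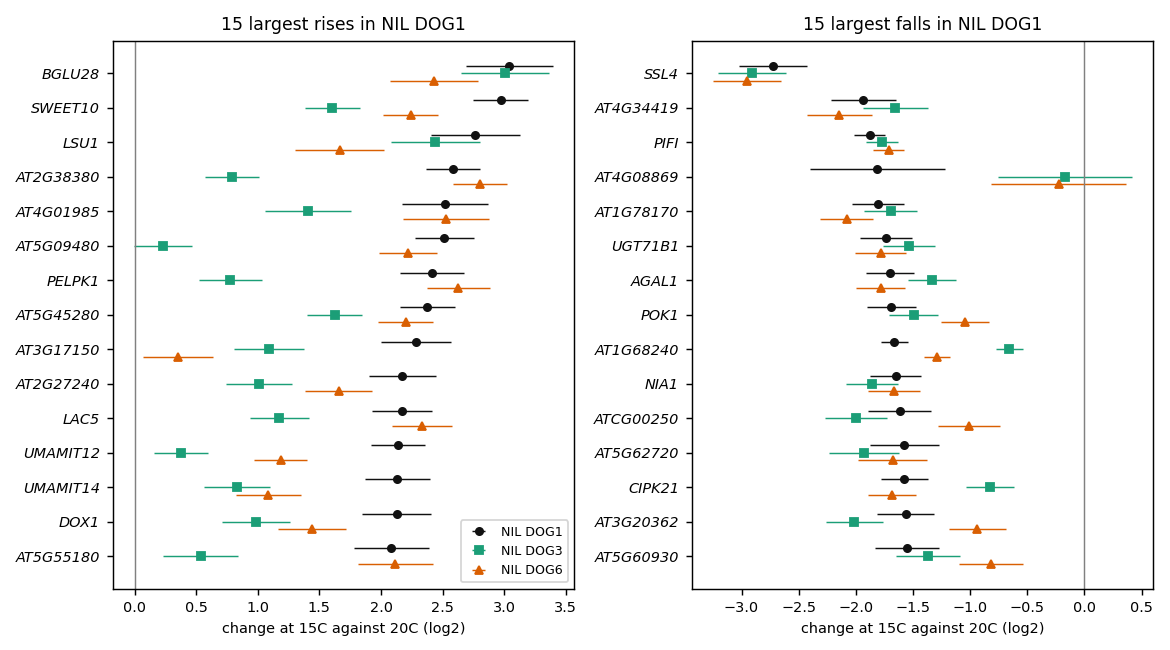
Change at 15C against 20C (log2, bars are SE) of the 15 largest rises and the 15 largest falls in NIL DOG1, shown in all 3 lines. The choice of genes by NIL DOG1 favours large values in that line; BGLU28 and SSL4 lie close together in the 3 lines, while UMAMIT12, AT5G09480 and AT4G08869 are spread apart.

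The response of NIL DOG1 was shared in direction by the other lines. Of its 2707 calls, 2571 (95%) had the same sign in all 3 lines, 1548 (57.2%) were also called in NIL DOG3, 1675 (61.9%) in NIL DOG6 and 1208 (44.6%) in both, in the same direction. The lines share no array. In NIL DOG3 2557 were called (9.19% of all probe sets), 4.95% higher and 4.24% lower, and in NIL DOG6 3255 (11.7%), 5.72% higher and 5.97% lower. Among the 298 probe sets with a 2-fold change, 191 were called in all 3 lines. Of all calls 692 were made in NIL DOG1 alone, but a difference in response was called for 0 of them, so they are not shown to be particular to the line. The change had the same sign in all 3 lines and was largest in NIL DOG1 for 1296 of its calls (47.9%). The same count was 1239 (48.5%) for the calls of NIL DOG3 in that line and 1943 (59.7%) for those of NIL DOG6. Choosing calls by a line favours large values in that line, and the part of this choice in the shares was not tested. The median change of the higher calls was 0.63 in NIL DOG1, 0.47 in NIL DOG3 and 0.49 in NIL DOG6.

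TT10 (AT5G48100) was the 1 gene called for a difference between the response of NIL DOG1 and the mean response of the other lines (0.00359% of all probe sets). Without adjustment 1095 probe sets had a p under 0.05 in this comparison, fewer than the 1391 that chance alone would give on average, and with array weights 15 were called. It encodes a laccase-like oxidase known for the browning of the seed coat, where it oxidizes flavonoids. In NIL DOG1 it read 4.73, 5.30 and 4.84 at 15C and 3.14, 3.33 and 3.42 at 20C. These groups lay far apart, with a rise of 3.17-fold (1.66 ± 0.16, adjusted p = 1.2e-08). In NIL DOG3 it read 2.99, 3.10 and 3.47 at 15C and 2.99, 2.80 and 2.86 at 20C. In NIL DOG6 it read 3.25, 3.85 and 3.25 at 15C and 2.71, 2.86 and 3.11 at 20C. Every array of both other lines at 15C was below the lowest of NIL DOG1 at 15C. The response in NIL DOG1 exceeded the mean of the others by 1.23 ± 0.20 (adjusted p = 0.0145), that of NIL DOG3 by 1.36 ± 0.23 (adjusted p = 0.0097) and that of NIL DOG6 by 1.11 ± 0.23 (adjusted p = 0.190, not passed). At 20C NIL DOG1 exceeded the others by 0.41 ± 0.14, which did not pass (adjusted p = 0.15), and at 15C by 1.64 ± 0.14 (adjusted p = 2.3e-10). N0 and LL gave 0.29 ± 0.16 and 0.26 ± 0.16 in NIL DOG1, and neither passed.

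The call for TT10 was narrow. Its adjusted p was 0.149 without the second array of NIL DOG1 at 15C (1.06 log2 units), 0.180 without the first at 20C (1.16), 0.0646 without the second at 20C (1.25) and 0.227 with only the 18 arrays of 15C and 20C in the fit. All of its values at 20C lay below the median of all probe sets. TT10 is on the chromosome of DOG1, with 245 measured genes between them. Among the 201 measured genes centred on DOG1, 34 (16.9%) differed between NIL DOG1 and the other lines at 20C, and among the 201 centred on TT10, 30 (14.9%) did, against 2.36% of all probe sets. A difference in gene sequence between the lines at TT10, and its part in the probe signal, was not tested. The other 7 seed coat markers averaged 3.80 to 4.04 per array at 15C and 3.84 to 3.89 at 20C, overlapping, and 0 of them were called. Of the 25 flavonoid and proanthocyanidin genes TT10 and TT7, a flavonoid hydroxylase gene (0.58 ± 0.13), rose, with 5.33% of all probe sets higher. The neighbouring steps TT5, DFR and LDOX gave 0.58, 0.52 and 0.51 and did not pass.

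**Figure D3:**
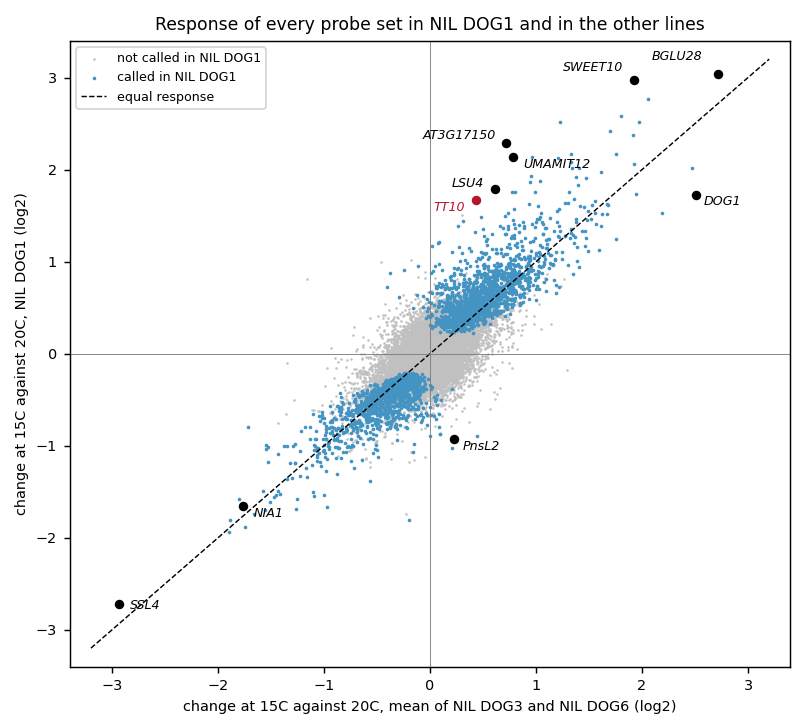
Change at 15C against 20C of every probe set in NIL DOG1 (vertical, log2) against the mean change in NIL DOG3 and NIL DOG6 (horizontal, log2), with calls in NIL DOG1 in blue, equal responses on the dashed line and named genes in black. TT10, in red, is the 1 probe set whose difference of 1.23 was called; AT3G17150 and UMAMIT12 lie farther from the dashed line, at 1.56 and 1.36, without a call.

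Against NIL DOG3 alone, 6 probe sets were called (0.0216%), TT10 among them, and against NIL DOG6 alone 1 was (0.00359%). Without the second array of NIL DOG1 at 15C the first count was 2, and with the 18 arrays of 15C and 20C alone it was 1. AT5G09480 read 5.78, 5.87 and 5.95 at 15C and 3.10, 3.28 and 3.67 at 20C in NIL DOG1. It rose by 2.52 in this line, gave 0.23 in NIL DOG3 and rose by 2.22 in NIL DOG6. AT2G38380 rose by 2.58, 0.79 and 2.80 in NIL DOG1, NIL DOG3 and NIL DOG6. For both genes NIL DOG1 was thus nearer to NIL DOG6 than to NIL DOG3. UMAMIT12 read 5.46, 5.01 and 4.58 at 15C and 2.77, 2.86 and 3.00 at 20C. Its rise of 2.14 exceeded that of NIL DOG3, 0.38, by 1.76 ± 0.31 (adjusted p = 0.0104), and stood beside 1.18 in NIL DOG6 without a called difference. AT1G68240 fell in all lines, by 1.67 in NIL DOG1 and by 0.66 in NIL DOG3, with 7.66, 7.54 and 7.64 at 15C against 9.18, 9.40 and 9.26 at 20C. The other called loci, AT5G60260 against NIL DOG3 and AT3G24450 against NIL DOG6, gave 0.15 and -0.04 in NIL DOG1, neither called there.

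Further genes had a larger response in NIL DOG1 at a small p, without passing over all probe sets. AT3G17150 gave 2.29 against 1.09 and 0.35 in NIL DOG3 and NIL DOG6 (difference 1.56 ± 0.35, adjusted p = 0.171). LSU4, a further member of the LSU group, read 4.88, 4.67 and 4.25 at 15C and 2.47, 2.93 and 3.02 at 20C. Its rise of 1.79 stood against 0.30 and 0.91 (difference 1.18 ± 0.27, adjusted p = 0.186). AT5G44306 rose by 1.20 against -0.12 and 0.28, and AT1G08165 by 0.84 against 0.25 and 0.15. On the lower side were PnsL2, a subunit gene of the chloroplast NDH complex (-0.93 against 0.06 and 0.38), AT5G43150 (-0.77 against -0.04 and -0.01) and TRM28 (-0.93 against -0.30 and -0.33). The adjusted p of AT5G44306, AT1G08165, PnsL2, AT5G43150 and TRM28 was 0.129. At 20C NIL DOG1 differed from the mean of the others by 0.74 for AT5G43150 and -0.43 for AT1G08165, both called. At 15C these gaps were -0.01 and 0.22, neither called. For AT3G17150, LSU4, AT5G44306, PnsL2 and TRM28 the gap was called at 15C and not at 20C.

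Most of the listed sulphur limitation genes rose. Of the 19 listed, 13 rose, 0 fell and 6 did not pass in NIL DOG1, with 5.33% of all probe sets higher. The median change was 0.68, against -0.01 over all probe sets. Like the other lists, this one was chosen with earlier results of these data known. When 1 array was left out, 10 to 12 were called higher. In NIL DOG3 13 and in NIL DOG6 11 rose, with medians of 0.57 and 0.55. SULTR1;2, a sulphate uptake transporter gene, read 7.48, 7.32 and 7.12 at 15C and 5.78, 5.63 and 5.79 at 20C (1.57 ± 0.27). In all lines the groups of this gene were called apart. SDI1, a repressor of glucosinolate synthesis under sulphur deficiency, read 7.0, 6.72 and 6.77 at 15C and 5.11, 5.45 and 5.21 at 20C (1.57 ± 0.18). The 20C level of SDI1 differed between NIL DOG1 and the mean of the others by -0.77 ± 0.16 (adjusted p = 0.0022), and at 15C the lines differed by 0.02 ± 0.16. The sulphate reduction genes APR1, APR2 and APR3 rose by 0.68, 0.56 and 0.63, LSU2 and LSU3 by 0.85 and 0.82, and BGLU30 by 1.24. Uptake transporter SULTR1;1 gave -0.19 ± 0.20, and the regulator SLIM1 gave 0.17 ± 0.09, neither passing.

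Of 22 nitrogen assimilation genes 7 fell, 2 rose and 13 did not pass, with a median of -0.31 and with 4.4% of all probe sets lower and 5.33% higher. The nitrate reductase gene NIA1 read 6.50, 6.83 and 6.76 at 15C and 8.21, 8.36 and 8.48 at 20C (-1.65 ± 0.23, adjusted p = 4.7e-06), with all 15C arrays lower. UPM1, an enzyme of sirohaem synthesis that serves nitrite and sulphite reductase, gave -1.18 ± 0.17, and the nitrite reductase gene NIR1 -1.02 ± 0.23. The root ferredoxin reductase genes RFNR1 and RFNR2 gave -1.07 and -0.85, the ferredoxin gene FD3 -0.61 and the glucose-6-phosphate dehydrogenase gene G6PD2 -0.67. The 2 that rose were the cytosolic glutamine synthetase genes GLN1;1 (0.59) and GLN1;3 (0.35). Of 16 nitrate transport and signalling genes 2 rose, the transceptor gene NRT1.1 (0.83) and the dormancy-linked regulator NLP8 (0.64), and 3 fell, among them LBD39, a nitrate-induced repressor (-0.81). Under N0, which shares the 20C arrays, the same line gave -1.25 for NIA1, -1.14 for NIR1, 1.25 for NRT1.1 and -1.41 for LBD39. When 1 array was left out, the calls of RFNR2, NRT1.1 and LBD39 could be lost, and 0 to 2 nitrogen assimilation genes were called higher and 5 to 7 lower. Of the nitrate genes 1 to 2 were then higher and 1 to 3 lower.

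**Figure D4:**
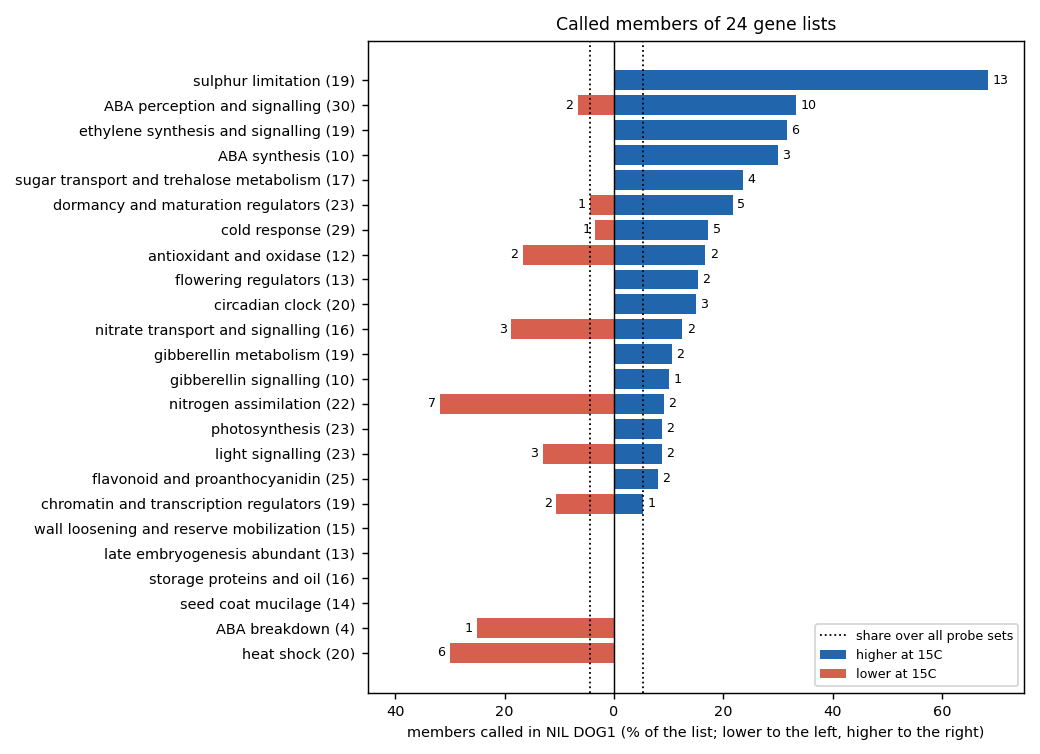
Share of the members of 24 gene lists called higher (blue, right) or lower (red, left) at 15C in NIL DOG1, in % of the list, with the number called on each bar, the list size in brackets and the share over all probe sets dotted. Sulphur limitation has 13 of 19 higher, and heat shock and nitrogen assimilation have 6 of 20 and 7 of 22 lower.

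Heat shock genes were lower or did not pass, with 6 of 20 lower, 0 higher and a median of -0.11, where 4.4% of all probe sets were lower. HSP17.6II, a small chaperone gene, read 5.77, 6.37 and 5.51 at 15C and 7.16, 7.71 and 7.39 at 20C (-1.54 ± 0.17). The small chaperone genes HSP23.6 and HSP22.0 gave -1.33 and -1.05, the coactivator gene MBF1C -1.19, the heat shock factor gene HSFA2 -1.17 and HSP90.1 -0.51. The seed heat shock factor gene HSFA9 (0.12 ± 0.09) and HSP101 (-0.12 ± 0.11) did not pass. Under N0 the same line gave 0.84 for HSP17.6II, 1.21 for HSP23.6 and 0.85 for HSP22.0, positive where 15C was negative. MBF1C and HSFA2 did not share this, with -0.06 and -0.27 under N0, neither passing. Both N0 and 15C are set against the same 20C arrays.

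**Figure D5:**
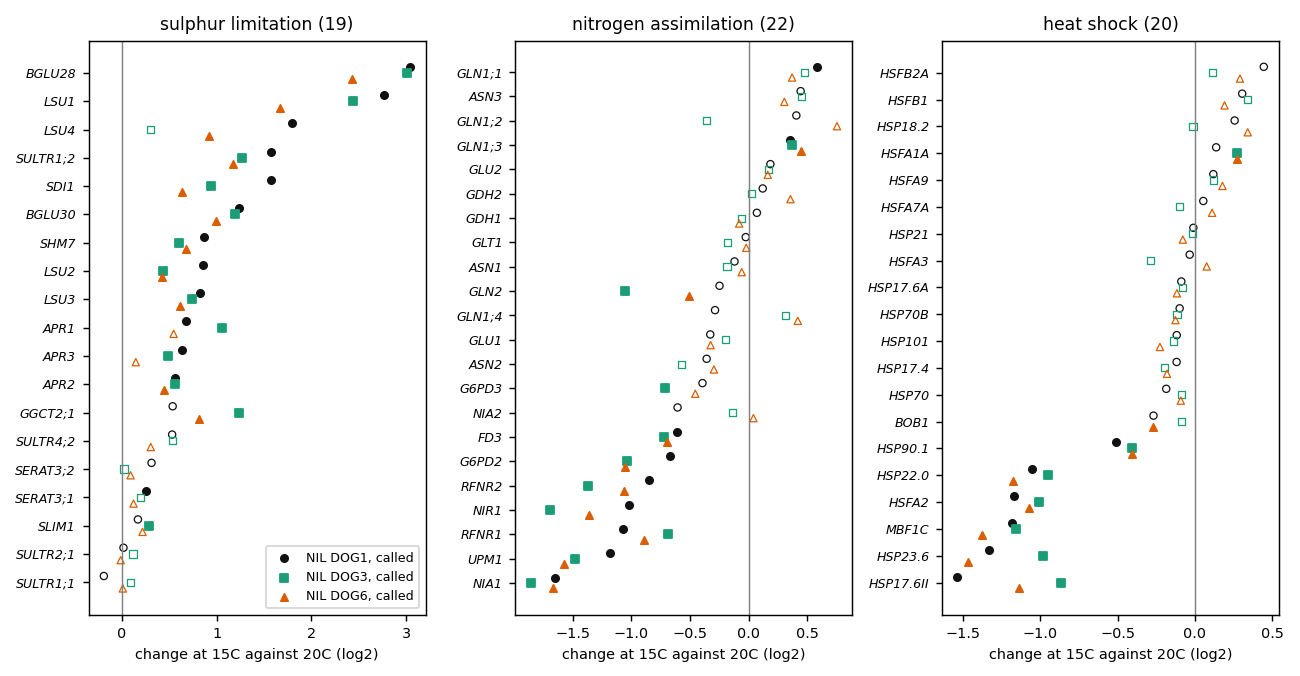
Change at 15C against 20C (log2) of every member of 3 gene lists in NIL DOG1 (circles), NIL DOG3 (squares) and NIL DOG6 (triangles), filled where called. For LSU4 and SDI1 the circle lies to the right of the square and the triangle, while the difference between lines did not pass for either gene, and the 6 heat shock genes called in NIL DOG1 are called in all lines.

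Of 23 dormancy and maturation regulators 5 rose, DOG1 among them, 1 fell and 17 did not pass, with 5.33% of all probe sets higher and 4.4% lower. MFT, which responds to ABA in germination, read 9.02, 9.01 and 9.08 at 15C and 8.22, 8.15 and 8.71 at 20C (0.68 ± 0.13). The maturation transcription factor genes BZIP53 (0.68 ± 0.11) and FUS3 (0.52 ± 0.13) and the dormancy gene RDO5 (0.29 ± 0.09) rose too. BZIP53 shares its values with AT3G62422, so the loci cannot be told apart. PIF1, a repressor of germination in the dark, fell, with 5.34, 5.30 and 5.48 at 15C and 6.77, 6.66 and 6.09 at 20C (-1.13 ± 0.16). The master regulators ABI3, LEC1 and LEC2 gave -0.08, -0.11 and 0.17, and SOM, which acts downstream of PIF1, gave 0.08, all without passing. The call of FUS3 was lost when 1 array was left out, and 3 regulators in place of 5 were called higher without the first array at 15C or the second at 20C.

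Of 10 ABA synthesis genes, 3 rose, all coding for the rate-limiting dioxygenase, with 5.33% of all probe sets higher and 4.4% lower. NCED3 read 5.86, 5.69 and 5.55 at 15C and 4.67, 4.25 and 4.62 at 20C (1.18 ± 0.23), and NCED6 and NCED2 rose by 0.95 and 0.77. NCED9, a further seed member, gave -0.06 ± 0.15. CYP707A2, the ABA hydroxylase known from early imbibition, fell by 0.53, and CYP707A1 gave 0.81 ± 0.28 (adjusted p = 0.058). Of 30 genes of ABA perception and signalling 10 rose and 2 fell. The 10 included the phosphatase genes ABI1, ABI2, HAB1, HAI1, HAI2, HAI3 and AHG3, which restrain ABA signalling. ABI2 read 9.52, 9.55 and 9.30 at 15C and 8.63, 8.61 and 8.77 at 20C (0.79 ± 0.10), and HAI1 rose by 0.95. AHG1, the seed phosphatase known to bind DOG1, gave 0.02 ± 0.06. The receptor gene PYR1 rose by 0.75 and the transcription factor genes ABF4 and ABF2 by 0.63 and 0.52. ABI4, a transcription factor gene of the ABA pathway, gave -1.03 ± 0.18 and the receptor gene PYL8 -0.66 ± 0.19. The calls of NCED2 and CYP707A2 were lost when 1 array was left out, and 7 to 10 of the perception and signalling genes were then higher.

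Of 19 gibberellin metabolism genes 2 rose and 0 fell, with 5.33% of all probe sets higher, both for enzymes that inactivate the hormone. The median of the list was -0.13, and 7 of its 19 members had a positive change. GA2OX6 read 5.70, 5.70 and 5.04 at 15C and 3.65, 3.81 and 4.01 at 20C (1.66 ± 0.19), and GA2OX2 rose by 0.89. The activating oxidase genes GA3OX1 and GA20OX3 gave -0.19 and -0.35 from low levels and did not pass. RGL2, the main DELLA repressor of germination, rose by 0.49 (adjusted p = 0.037) but its call was lost with centred arrays (adjusted p = 0.0559) and without any 1 of 5 of the 6 arrays. Of 19 ethylene genes 6 rose and 0 fell. ACS7, a gene of ethylene synthesis, read 6.32, 6.30 and 6.11 at 15C and 4.41, 3.71 and 4.40 at 20C (2.07 ± 0.40), with all 15C arrays higher. The receptor gene ERS2 rose by 0.90, and the brakes on the pathway CTR1 and EBF2 by 0.46 and 0.44.

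Of 29 cold response genes 5 rose, 1 fell and 23 were not called, with 5.33% of all probe sets higher and 4.4% lower. The median of the list was 0.22, against -0.01 over all probe sets. Without the first array at 20C the higher ones were 1. COR413-PM1, a membrane protein gene induced by cold, read 7.67, 7.42 and 7.54 at 15C and 6.69, 6.64 and 6.69 at 20C (0.87 ± 0.14). COR6.6 read 5.95, 5.71 and 4.77 at 15C and 3.88, 3.69 and 3.60 at 20C (1.75 ± 0.55, adjusted p = 0.036), with 1 array at 15C well below the others, and its call was lost without any 1 of 5 of the 6 arrays. GRP7, a clock-controlled RNA-binding protein gene, gave -0.97 ± 0.14. The cold regulators CBF1, CBF2 and CBF3 gave 0.24, 0.03 and -0.03, and their target COR15A -0.03, all at levels of about 2 and without passing, while CBF4 rose by 0.86, a call lost when 1 array was left out. Of 20 clock genes 3 rose, GI, PRR7 and FKF1, each by 0.43 to 0.50. The call of FKF1 could be lost when 1 array was left out, where 2 to 3 clock genes were higher.

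Of 17 listed sugar transport and trehalose genes 4 rose, SWEET10, the hexose transporter gene STP1 (0.82 ± 0.09), and TPS1 and TPS7 of trehalose phosphate synthesis (0.62 and 0.60). A count over the families of the largest rises, made after their values were seen, found 6 of 44 UMAMIT genes higher (13.6%, against 5.33% of all probe sets) and 0 lower, with a family median of 0.01. Besides UMAMIT12 and UMAMIT14 these were UMAMIT29 (1.48), UMAMIT25 (1.38), UMAMIT41 (0.72) and UMAMIT8 (0.36). In NIL DOG3 UMAMIT29 gave -0.01 and UMAMIT25 0.59, and in NIL DOG6 0.97 and 1.38. Of 15 SWEET genes 2 rose, SWEET10 and SWEET7 (1.14), and SWEET1 fell by 0.62, with a median of -0.11. Of 14 LAC genes, with a median of -0.08, 2 rose, LAC5 and LAC8 (1.63 ± 0.35), and LAC8 gave 0.01 in NIL DOG3 and 1.86 in NIL DOG6. The UMAMIT, SWEET and LAC counts include UMAMIT12, UMAMIT14, SWEET10 and LAC5, through which the families were chosen. That choice raises their shares, so the comparison with all probe sets is no test of a family.

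Other groups mostly had few or no calls, where 5.33% of all probe sets were higher and 4.4% lower. None of the 16 storage protein and oil genes, 13 late embryogenesis abundant genes, 14 mucilage genes or 15 genes of wall loosening and reserve mobilization was called in the fit over all arrays, with medians of -0.02, 0.01, 0.10 and -0.12. The 2S albumin genes SESA2 and SESA4 gave -0.45 ± 0.15 and -0.33 ± 0.17, and SESA2 was near the threshold (adjusted p = 0.052). Light signalling had 2 of 23 higher and 3 lower, with CRY1, a blue light receptor, at 0.57 and the phytochrome genes PHYA and PHYB at -0.56 and -0.35. The antioxidant list had 2 of 12 higher, the catalase gene CAT1 (0.45) and the oxidase gene RBOHD (0.56), and 2 lower. Among chromatin and transcription regulators 1 of 19 was higher and 2 were lower, including the DNA demethylase gene ROS1 (-0.41). These small counts depended on single arrays. When 1 array was left out, 1 to 2 light signalling genes were lower, with the calls of PHYB, HY5 and PIF6 lost in turn, and 0 to 2 antioxidant genes were lower, with those of APX6 and CAT2 lost. Of the chromatin regulators 0 to 2 were then lower and 0 to 1 higher. Photosynthesis and flowering had 2 of 23 and 2 of 13 higher, 0 to 1 and 1 to 2 with 1 array left out, and the called photosynthesis genes LHCB1.3 and LHCB4.1 were both lost with centred arrays. Of 15 plastid loci 4 (26.7%) were lower and 0 higher, and of 92 mitochondrial loci 8 (8.70%) were lower, against 4.4% of all probe sets. Some of these called loci share identical values with another locus, among them the plastid loci ATCG00970 and ATCG01160, which share theirs with each other.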

How the data were processed

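Log2 values of 27827 probe sets on 44 arrays were used as deposited by the authors. They were made with RMA (background correction, quantile normalization and probe summary), per the submitters' processing notes. No source used here gives the RMA version, array annotation or genome build, so no coordinate or sequence is printed. Quantile normalization hides a change in total RNA. The number of arrays limits the precision.

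Group means of all 15 groups were fitted with limma 3.58.1 (lmFit, eBayes) in R 4.3.3, without a filter or block (29 residual degrees of freedom). Residual SDs had a median of 0.199, and the median SE was 0.160 for a change in NIL DOG1 and 0.196 for its difference from the mean of the other lines. Tests were two-sided, with Benjamini-Hochberg adjustment over all probe sets and calls at an adjusted p under 0.05. A difference in response between lines was tested as an interaction contrast. The fit was tested on simulated data, with 50 genes changed in NIL DOG1 at 15C at each size. For the difference from the mean of the other lines, changes of 0.5, 1 and 2 log2 units were recovered in 18%, 60% and 98%. Changes of -1 were recovered in 74%, so smaller differences in response can be missed. The simulation made 131 calls in this comparison, whereas the data gave 1. With fewer calls the adjustment asks for a smaller p, so these shares can overstate the recovery in the data. UMAMIT12, with a difference of 1.36, was not called.

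Replicates are bulks of separate plants, per the labels. No 2 arrays were identical. Symbols come from a TAIR10.1 table that listed 27240 loci, 10560 with a symbol. Of 466 members written in 24 gene lists and 5 marker lists, 453 were used; the others were left out because the gene table did not give their name at that locus or no probe set was found. Values of 182 probe sets equal those of another.

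Named genes are DOG1, the 15 largest rises and falls, genes with the smallest p for a different response (also among those called and largest in NIL DOG1), and, per list, at most 5 called members, taken by size of change. RDO5, HAB1 and other list members outside that rule, and the families of large rises, were chosen after their values were seen. Members and lists were chosen with earlier results of these data known. Alternatives were the arrays fitted, the variance prior, a filter on dim probe sets, array weights, array centring, replicate blocks, a 2-fold minimum and leaving out each array.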

Additional observations from a re-analysis of the deposited data

Results flagged for a closer look

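Differences between lines in the response to 15C that passed limma's test over all probe sets are given here with their values, without an explanation. TT10 responded more in NIL DOG1 than in the mean of NIL DOG3 and NIL DOG6, by 1.23 on the log2 scale, and more than in NIL DOG3 by 1.36. UMAMIT12, AT2G38380 and AT5G09480 rose more in NIL DOG1 than in NIL DOG3, by 1.76, 1.79 and 2.29. AT1G68240 differed from NIL DOG3 by -1.01, a deeper fall in NIL DOG1. AT5G60260 differed from NIL DOG3 by 1.49, where NIL DOG3 read 2.48, 2.65 and 2.97 at 15C and 4.16, 4.25 and 3.70 at 20C. AT3G24450 differed from NIL DOG6 by -1.43, where NIL DOG6 read 3.87, 3.64 and 4.20 at 15C and 2.64, 2.57 and 2.35 at 20C. AT5G60260 and AT3G24450 were not called in NIL DOG1. Single outlying arrays were not tested for.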

How the results depend on the processing

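Of 1532 values of 111 named genes in NIL DOG1 under the alternatives, 1401 kept direction and call, 131 (33 genes) lost the call and 0 reversed. With only the 6 arrays of NIL DOG1 in the fit, 1314 probe sets were called, 835 higher and 479 lower, and with a 2-fold minimum 298 were. Same-numbered arrays at 15C and 20C correlated in their deviations at 0.242, -0.0329 and 0.0665, and differently numbered ones at -0.245 to 0.228. With 3 arrays a group these values cannot settle whether the replicate numbers pair the arrays. With the replicate block 2730 were called. Leaving out 1 array of NIL DOG1 gave 1724 to 2321 calls, 1007 to 1247 higher and 717 to 1100 lower. For the difference from the mean of the other lines it gave 0 to 2 calls, from NIL DOG3 2 to 7 and from NIL DOG6 1. Leaving out an array of the other lines, an alternative chosen after seeing the data, gave 1 to 2 calls for the mean, 4 to 8 for NIL DOG3 and 1 to 2 for NIL DOG6. With the 18 arrays of 15C and 20C the differences had 0, 1 and 0 calls, with probe sets above the median level only 0, 2 and 0, a filter that leaves TT10 out, and with array weights 15 and 18 for the mean and NIL DOG3. With a variance prior that follows the level the mean difference had 0 calls. The TT10 difference was then 1.235 (adjusted p = 0.0502), and also 1.235 with the 18 arrays (0.227). Leaving out 1 array it ranged from 1.064 to 1.348, without a call in 3 of 6 cases; it was 1.18 to 1.335 without 1 array of another line, always called. Beyond fewer samples or genes tested, the cause of these moves was not tested. Low signal limits the sizes for genes below the array median.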
